A study of Rattus norvegicus with 8 samples.

Results

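The 2 mature strands of the rat miR-21 hairpin, rno-miR-21-5p and rno-miR-21-3p (miR-21-5p and miR-21-3p from here), were followed on miRNA arrays of the prostatic urethra after laser injury. They were found by their exact names in the scanner files and in the deposited table, and they are 2 of the 758 rat miRNAs on the array. Both were selected on their signal, detection and change between the TULP and sham groups on these same 8 arrays, so their levels and changes are given here as a description, with no test. miR-21-5p was bright on all 8 arrays and was higher in each TULP sample than in any sham sample, while miR-21-3p was not detected on any array.

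A microRNA (miRNA) is made from a short hairpin transcript that is cut into a duplex. In most hairpins one strand of the duplex is loaded into an Argonaute protein and kept, and the other is mostly degraded. The loaded strand pairs with messenger RNAs mainly through its seed, the bases after its first, and lowers their translation and stability. miR-21-5p is the kept strand of its hairpin in most tissues, is widely studied for its induction in injured, inflamed and fibrotic tissue, and represses messenger RNAs such as those of Pdcd4 and Spry1. miR-21-3p is its partner strand.

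The tissue came from male SD (Sprague Dawley) rats of 10 to 12 months, 5 days after surgery. In the TULP group, the lining of the prostatic urethra was vaporized with a thulium laser to simulate transurethral laser prostatectomy. In the sham group, the abdomen was opened at the midline without laser vaporization. Per the study's methods the laser was passed through an opened bladder, so the groups differed in the bladder incision and endoscopy as well as in the laser. Each group held 4 rats with 1 array each, and the rats carried no engineered allele. The titles, tissue names and treatment fields placed the samples in these groups, but the descriptions of the TULP samples name sham surgery before harvest, and the files do not settle this conflict. The tissue was a mixture, so a change in the share of a cell type and a change of RNA per cell cannot be told apart.

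The sequences of both strands are shown because their seeds mainly decide which messenger RNAs they could pair with. The mature sequences are from RefSeq, build GRCr8, with the seed (bases 2 to 8) in capitals.
miR-21-5p: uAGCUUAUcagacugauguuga
miR-21-3p: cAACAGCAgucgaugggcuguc
The seeds differ from each other. Of the 758 array miRNAs, 685 had a RefSeq sequence under the same name, and 0 of the others had the seed of miR-21-5p or of miR-21-3p. Among all 693 mature rat miRNAs of the table, 0 others shared either seed. Probes extend from the 3′ end of a miRNA, so a shared seed does not measure whether a probe could bind another miRNA. That was not tested.

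The hairpin is 92 bases long and is shown to place the strands, which are in capitals, with miR-21-5p at bases 18 to 39 and miR-21-3p at bases 56 to 77.
Mir21 hairpin: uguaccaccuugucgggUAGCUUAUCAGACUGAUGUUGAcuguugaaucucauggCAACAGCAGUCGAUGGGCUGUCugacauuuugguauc
In GRCr8 it lies on the minus strand at chr10:71902600-71902691, where no other gene of the RefSeq table overlaps it. The nearest protein-coding gene is Vmp1, which encodes a membrane protein of autophagy and whose span starts 532 bases further along at position 71903223. On the other side, Tubd1, which encodes delta-tubulin, ends 13869 bases away.

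The probes are shown because the strands were not measured with equal means. Each probe is complementary to the 3′ end of its miRNA, and capitals mark the base that a probe has beyond the next shorter one.
miR-21-5p, longer probe: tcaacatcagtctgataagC
miR-21-5p, shorter probe: tcaacatcagtctgataag
miR-21-3p, longest probe: gacagcccatcgacT
miR-21-3p, probe of 14 bases: gacagcccatcgaC
miR-21-3p, probe of 13 bases: gacagcccatcgA
miR-21-3p, shortest probe: gacagcccatcg
The probes of miR-21-5p were 20 and 19 bases long, and those of miR-21-3p were 15, 14, 13 and 12 bases long. miR-21-3p has more G and C, 59.1% of its bases against 36.4% in miR-21-5p. Each strand had 16 spots on an array, 8 for each probe of miR-21-5p and 4 for each probe of miR-21-3p. In the files, which use build rn4, the longer probe of miR-21-5p is placed at chr10:74864520-74864538 and the longest probe of miR-21-3p at chr10:74864563-74864576.

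Short probes did detect other miRNAs. Of the 206 miRNAs whose longest probe had at most 15 bases, 35 (17.0%) were detected on at least 1 array and 20 on all 8. Of the 552 miRNAs with a longer probe, 150 (27.2%) were detected on at least 1 array. The brightest miRNA of the short-probe class was miR-214-3p, with a mean signal of 165 over the 8 arrays.

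miR-21-5p was detected on all 8 arrays. All 128 of its spots were well above background and 0 were saturated, with spot intensities from 162 to 4240 in scanner units. Its signal, the sum over detected probes before any normalization, was 727, 1128, 1102 and 957 on the 4 sham arrays. On the TULP arrays it was 2173, 2506, 2499 and 2233. The lowest TULP signal was 1.93 times the highest sham signal, so the groups did not overlap. The mean was 978 ± 184 in the sham group and 2353 ± 175 in the TULP group (SD, n = 4 each), a ratio of 2.40. TULP replicates 2 and 3 were the brightest and sham replicate 1 was the dimmest.

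Both probes of miR-21-5p gave the same picture. The longer probe had a mean signal of 852 ± 161 in the sham group and 2037 ± 150 in the TULP group. The shorter probe, which lacks a single base, had 127 ± 23.0 in the sham group and 316 ± 26.4 in the TULP group (SD, n = 4 each). On the log2 scale the longer probe differed by 1.28 and the shorter by 1.33. The longer probe was 6.21 to 6.86 times as bright as the shorter on each array. Replicate spots of a probe had a coefficient of variation of 1.97% to 5.81% within an array. Between arrays that of the miR-21-5p signal was 18.8% in the sham group and 7.43% in the TULP group. The scanner software gave each probe total an error of 10.0% to 10.1%, which is above the TULP spread. With 1 array per rat, spread between animals and between arrays cannot be told apart.

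miR-21-3p was at background on all 8 arrays. Of its 128 spots, 0 were well above background. Its probe signals ran from -1.59 to 0.97 in scanner units, and a probe had to pass a limit of 3 times its error, which was 1.68 to 2.12 on these arrays, to count as detected. The highest signal relative to its error was 1.52 errors, for a probe on TULP replicate 4. Summed over the 4 probes without regard to detection, the signal was -1.57, -0.43, -1.40 and -1.39 on the sham arrays. On the TULP arrays it was -2.61, 0.67, 0.83 and 0.63. TULP replicates 2, 3 and 4 were the arrays with a sum above 0, while TULP replicate 1 was lowest of all 8. As no probe passed its limit on any array, miR-21-3p has no measured level in either group, and a change between groups cannot be given. The deposited table lists it at log2 of 0.1, its value for undetected miRNAs, in all 8 columns.

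The ratio of the strands can therefore be bounded from below and no further. The lowest signal of a detected miRNA on each array, 1.86 to 3.42, was taken as the ceiling for miR-21-3p. Against it, miR-21-5p was at least 391, 518, 550 and 476 times as bright on the sham arrays. In the TULP group the factor was at least 937, 734, 1115 and 1110. The bound rises with the miR-21-5p signal itself, so these values do not show a change in the ratio. These are ratios of signal, not of molecules, since the probes of the strands differ in length and base composition.

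The array held both strands of 281 hairpins, of which 132 had at least 1 strand detected on at least 1 array. In 87 hairpins at least 1 strand was detected on all 8 arrays, and in 74 of these its partner was detected on none. The strand detected was the 5p in 38 and the 3p in 36. Ordered by the mean signal of the detected strand, miR-21 came second among the 74, with a mean of 1666 over the 8 arrays. Above it was miR-1, a muscle miRNA, whose 3p strand had a mean of 2228. Below it were miR-133b and miR-206, also muscle miRNAs kept as the 3p strand, with means of 1421 and 1077. A missing partner strand was thus common on this array.

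Both strands were detected on all 8 arrays in 7 hairpins. Their mean ratio was 15.2-fold at most, in miR-199a, where the 3p strand was brighter. The change of the log2 ratio of 5p to 3p between the TULP and sham groups ran from -0.34 to 0.43 in these 7 hairpins. The signal ratio of miR-21, at least 391-fold on each array, was above the ratios of all 7, but its change could not be placed among theirs, because its own ratio was a bound. A pair was among the 7 only with its dimmer strand detected on all 8 arrays, which leaves out wide ratios. In let-7b, for example, the 5p strand had a mean of 1571 and the 3p strand, detected on 3 arrays, a mean of 1.59.

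**Figure D1:**
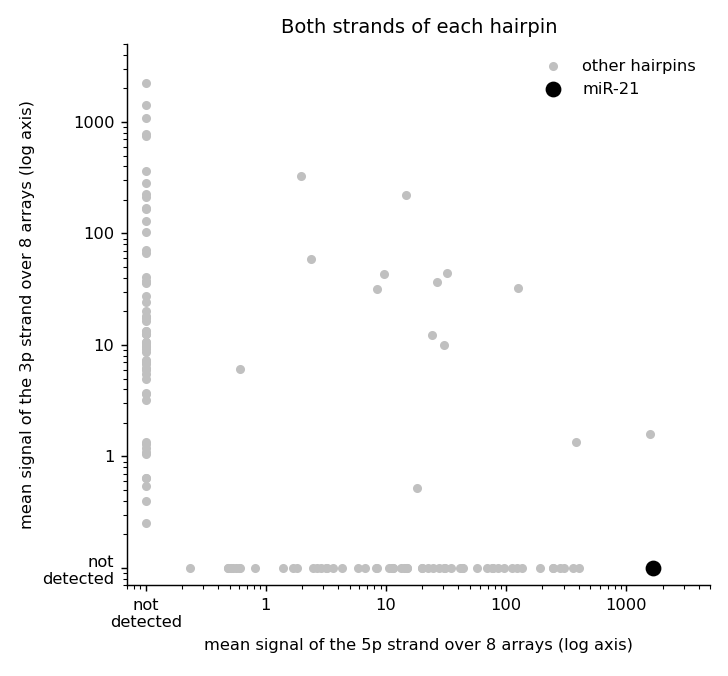
Mean unnormalized signal of the 5p strand against that of the 3p strand for the 132 hairpins with a detected strand, on log axes, with arrays without detection counted as 0. The point of miR-21 lies at the far right of the lower edge, where the 3p strand was detected on 0 arrays.

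Before normalization, miR-21-5p moved from the middle of the bright miRNAs to the top. By signal it ranked 9, 6, 7 and 10 among all miRNAs on the sham arrays and 1 on each of the 4 TULP arrays. The 136 to 156 miRNAs detected on an array give the scale of these ranks. Ranks and shares are of signal, and since probes differ in brightness they do not order the miRNAs by number of molecules. miR-21-5p held 3.45%, 4.46%, 3.77% and 2.56% of the summed signal on the sham arrays. On the TULP arrays it held 11.2%, 14.3%, 14.9% and 12.8%. The mean share was 3.56% ± 0.79 in the sham group and 13.3% ± 1.67 in the TULP group (SD, n = 4 each), a difference of 9.73 percentage points. The lowest TULP share was 6.71 points above the highest sham share.

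Both parts of the share moved. The signal of miR-21-5p was 2.44-fold higher in the TULP group as a ratio of geometric means, and the summed signal of all other miRNAs was 1.73-fold lower. The other miRNAs together gave 20348 to 36400 on the sham arrays and 14288 to 17291 on the TULP arrays, which do not overlap either. Among the 185 miRNAs detected on at least 1 array, 46 had a higher mean signal in the TULP group and 139 a lower one. Of the signal gained by those 46, miR-21-5p made up 81.0%, a gain of 1374 scanner units. The next gain, that of miR-146b-5p, was 44.5. With signals scaled to the labelling spike-ins, miR-21-5p made up 85.4% of the gain of 37 miRNAs.

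Besides miR-21-5p, 7 miRNAs were among the 5 brightest on any array. On the sham arrays the brightest was miR-1-3p or let-7c-5p, a member of the let-7 family that marks differentiated cells. miR-1-3p held 8.94% to 13.2% of the signal on sham arrays and 5.30% to 7.84% on TULP arrays. let-7c-5p held 7.49% to 9.03% on sham arrays and 6.64% to 8.23% on TULP arrays, which overlap. let-7b-5p also overlapped, with 6.10% to 7.69% on sham arrays and 6.06% to 6.60% on TULP arrays. The others were miR-133b-3p, miR-1b, miR-206-3p and the smooth muscle miRNA miR-143-3p. None of these 7 was above miR-21-5p on a TULP array, where miR-21-5p was 1.36, 2.00, 2.12 and 1.63 times as bright as the next miRNA. On sham arrays it was 0.196 to 0.494 times as bright as the top miRNA. In the sham group it could not be set apart from miR-143-3p, whose signal was 769.7 to 1091 and which ranked just above it on 1 array and just below it on 3.

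**Figure D2:**
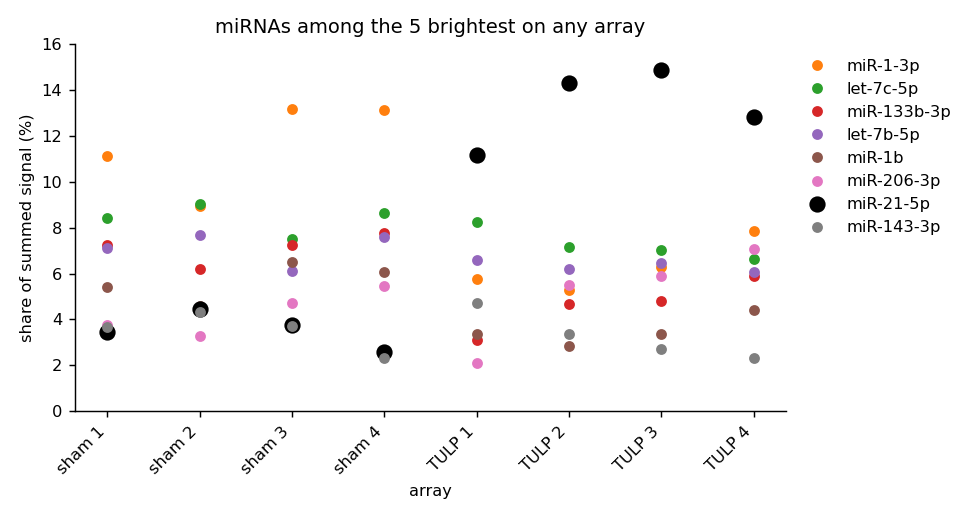
Share of the summed unnormalized signal on each array, in percent, for the 8 miRNAs that were among the 5 brightest on any array. miR-21-5p (black) holds 2.56% to 4.46% on sham arrays and 11.2% to 14.9% on TULP arrays, where it lies above the other 7.

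The size of the change depended on the scaling. After quantile normalization over the 758 miRNAs, miR-21-5p was at 9.54, 10.10, 9.80 and 9.42 on the log2 scale in the sham group. It was at 11.48 on each TULP array, since quantile normalization gives the top miRNA of each array the same value. Its SD there, 0, is made by the method and is no measure of the spread between animals. The difference was 1.76 on the log2 scale, or 3.39-fold. The median change of the 151 tested miRNAs was -0.02.

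Scaled to the labelling spike-ins, foreign RNAs added in equal amount to each sample before labelling, miR-21-5p was at 9.78, 10.18, 10.50 and 9.65 in the sham group on the log2 scale. In the TULP group it was at 10.89, 11.18, 11.13 and 11.13. The lowest TULP value was 0.39 above the highest sham value. The means were 10.03 ± 0.39 and 11.08 ± 0.13 (SD, n = 4 each), a difference of 1.05, or 2.08-fold. On this scale the 151 tested miRNAs had a median change of -0.78, so relative to it miR-21-5p was higher by 1.84. Without normalization the difference was 1.28 with a median of -0.55, and relative to it again 1.84. Without TULP replicate 1, the TULP array with the lowest miR-21-5p signal, the difference was 1.12 with spike-in scaling and 1.32 without normalization.

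The arrays lay in 2 rows of 1 slide, with sham replicate 4 and TULP replicates 1 to 3 in the first row and the others in the second. The log2 signal of the labelling spike-ins was 8.55 to 8.69 in the first row and 8.04 to 8.44 in the second, so the spike-in scale moved with the row. Within the first row miR-21-5p was higher in the TULP group by 2.06 after quantile normalization, 1.42 after spike-in scaling and 1.32 without normalization. Within the second row, with a single TULP array, these differences were 1.66, 0.97 and 1.21.

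In the deposited table, quantile normalized by the authors together with control features, miR-21-5p was at 9.42, 10.01, 10.01 and 9.31 in the sham group and at 11.15, 11.15, 11.15 and 11.39 in the TULP group on the log2 scale. The difference was 1.52.

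**Figure D3:**
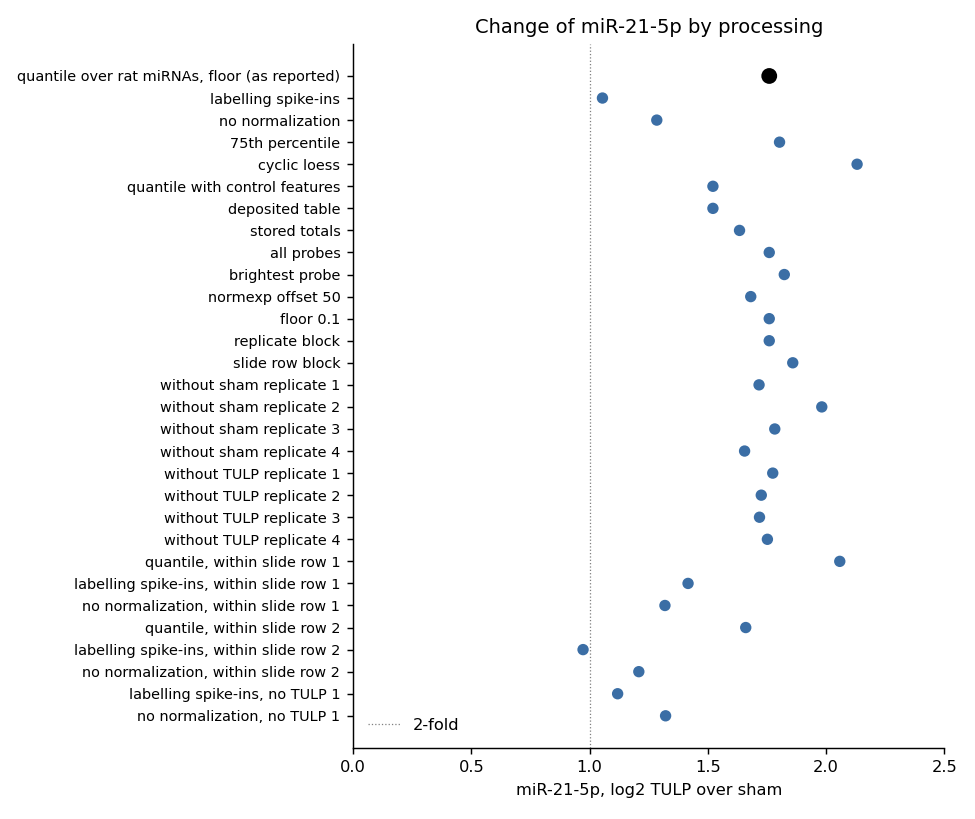
Difference of miR-21-5p between groups (log2 TULP over sham) under each processing, with the value as reported in black and 2-fold as a dotted line. All values are above 0, from 0.97 with spike-in scaling within the second slide row to 2.13 with cyclic loess.

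In the fit over all tested miRNAs, 14 of 151 (9.27%) passed a limma adjusted p under 0.05 with more than 2-fold change, 8 of them higher in the TULP group (5.30%) and 6 lower (3.97%). In 44 of the 151 (29.1%), every TULP value lay on one side of every sham value, 22 on each side (14.6%). miR-21-5p was among these by the way it was chosen, and nothing is read from that. Its change was the 5th largest rise under quantile normalization, under spike-in scaling and without normalization. Its rank moved with other processing: it was 11 in the deposited table, 12 with the totals stored in the scanner files and 1 with normexp background correction. On the quantile, spike-in and unnormalized scales the larger rises were those of miR-188-5p, miR-146b-5p, miR-223-3p and miR-142-3p. The highest signal of any of these 4 on any array was 70.8, that of miR-223-3p on TULP replicate 2, against 2506 for miR-21-5p. miR-188-5p was detected on 0 sham arrays, so its fitted change depends on the floor.

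**Figure D4:**
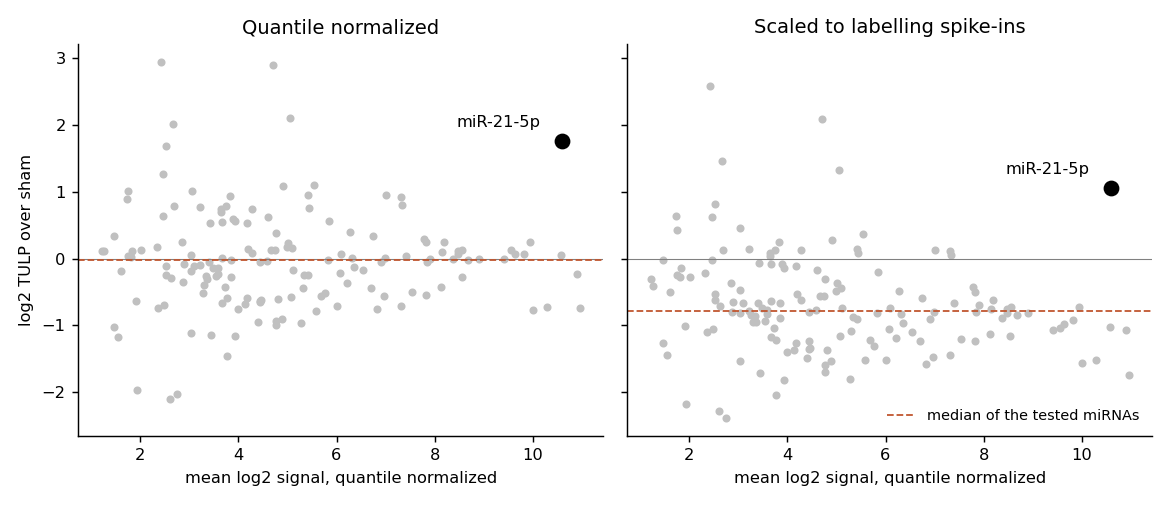
Change between groups (log2 TULP over sham) against mean log2 quantile-normalized signal for the 151 tested miRNAs, with quantile normalization on the left and spike-in scaling on the right. miR-21-5p (black) lies at 1.76 and 1.05, and the dashed line marks the median of the tested miRNAs, -0.02 and -0.78.

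The miRNAs whose pattern was most like that of miR-21-5p were sought among the other 121 miRNAs detected on all 8 arrays. The measure was the root mean square difference over the 8 arrays of the log2 quantile-normalized signals, each taken relative to its own sham mean. The method gives miR-21-5p the same value on each TULP array, so its pattern there holds its rise and no spread between animals. It was chosen with that rise known, so the list is a description. The nearest was miR-223-3p, a miRNA of neutrophils and other myeloid cells, with a difference of 0.46. It was followed by miR-20a-5p of the miR-17-92 cluster (0.56), miR-3473 (0.58), miR-15b-5p (0.62) and miR-34a-5p, a target of p53 (0.65). The median over the 121 was 1.34. With spike-in scaling miR-223-3p, miR-20a-5p and miR-3473 again ranked 1, 2 and 3, miR-34a-5p ranked 5 and miR-15b-5p ranked 7. No such list could be made for miR-21-3p, which had no measured level.

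miR-223-3p was far dimmer than miR-21-5p in signal. The sham samples had unnormalized signals of 17.1, 19.6, 16.7 and 22.2, and the TULP samples 44.3, 70.8, 65.4 and 45.9. The groups did not overlap, and TULP replicates 2 and 3 were highest, as for miR-21-5p. The other 4 changed less on the log2 quantile scale, by 0.95 to 1.11 against 2.10 for miR-223-3p. On the spike-in scale these 4 differed by 0.13 to 0.37, and miR-223-3p by 1.33.

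Other miRNAs known to respond to inflammation formed a list of 11 with miR-146a, miR-146b, miR-155, miR-221 and others. In this list 6 were tested, and 3 passed a limma adjusted p under 0.05 with over 2-fold change, 2 higher and 1 lower. Of all tested miRNAs 9.27% passed, 5.30% higher and 3.97% lower. miR-146b-5p, which restrains signalling to NF-kB, had signals of 5.44 to 20.5 in sham samples and of 52.6, 63.2, 67.9 and 44.2 in TULP samples, and rose by 2.90 on the log2 quantile scale (limma adjusted p = 0.0032). miR-221-3p was detected on 3 sham and 4 TULP arrays and rose by 1.69 (limma adjusted p = 0.0379), but its groups overlapped. With spike-in scaling its change was 0.82 (limma adjusted p = 0.163), and the methods' t-test gave it an adjusted p of 0.0752. miR-181b-5p fell: it was detected on all 4 sham arrays, with signals of 3.80 to 6.78, and on 0 TULP arrays, which puts it at least 1.65-fold lower there (limma adjusted p = 0.0336, and 0.0634 by the methods' t-test). Its TULP values were all set to the floor, with an SD of 0 that was not measured. Its p-values and its call at over 2-fold therefore depend on the floor. The other 3 tested did not pass: miR-146a-5p differed by 0.39, miR-155-5p by 0.89 and miR-212-3p by -0.26 (limma adjusted p = 0.0995, 0.236 and 0.730). With spike-in scaling these changes were -0.30, 0.65 and -0.93. The median change of the 6 was 0.64, beside -0.02 over all tested miRNAs, and 0.17 with spike-in scaling, beside -0.78. miR-222-3p, miR-147 and miR-9a-5p were detected on no array.

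miRNAs known for a part in fibrosis, among them the miR-29 family and the miR-199 and miR-214 group, formed a list of 17. In this list 15 were tested, and 1 passed the adjusted p with over 2-fold change, a share near the 9.27% of all tested miRNAs. This was miR-101a-3p, a miRNA that represses Ezh2. It was detected on all 4 sham arrays, with signals of 4.30, 9.36, 16.7 and 9.32, and on 0 TULP arrays, which puts it at least 2.86-fold lower there (limma adjusted p = 0.0124). Its TULP values were all set to the floor, so this adjusted p uses a TULP spread that was not measured. At the adjusted p alone 3 rose and 2 fell (13.9% and 16.6% of all tested miRNAs did so, 30.5% together). The median change was 0.10, and with spike-in scaling -0.67. With spike-in scaling, 0 of the 15 rose and 8 fell at the adjusted p, beside 3.31% and 54.3% of all tested miRNAs, so the 3 rises did not hold on that scale. Of the miR-29 family, which represses collagens, the list holds the 3p strands of miR-29a, miR-29b and miR-29c, which did not pass under quantile normalization, with changes of 0.10, 0.34 and -0.52. miR-29c-5p, which is not on the list and is named here with its values known, was detected on all 4 sham arrays, with signals of 3.98 to 5.48, and on 0 TULP arrays, and was called (limma adjusted p = 0.0054, at least 1.49-fold lower). Its TULP values were also all set to the floor, so its adjusted p and its call at over 2-fold depend on the floor.

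Some markers of the cell types that this tissue can hold also differed between the groups, and others did not. The summed signal of the 6 leukocyte miRNAs was 0.229% to 0.354% of the total on the sham arrays and 0.466% to 0.730% on the TULP arrays. The summed signal itself overlapped, at 58.5 to 109 on the sham arrays and 90.8 to 128 on the TULP arrays. The total was lower on the TULP arrays, which raises the shares there. miR-223-3p rose by 2.10 (limma adjusted p = 0.00313), and miR-142-3p, a miRNA of blood cells, by 2.01 (limma adjusted p = 0.0163), the latter detected on 2 sham and 4 TULP arrays. miR-150-5p, a miRNA of lymphocytes, went the other way, with a change of -0.59 that did not pass (limma adjusted p = 0.0737) and groups that did not overlap, and with spike-in scaling it fell by 1.26 (limma adjusted p = 0.00117). miR-342-3p differed by 0.13, and by -0.56 with spike-in scaling. miR-155-5p was detected on 1 sham and 3 TULP arrays, and miR-142-5p on none. miR-155-5p is also on the inflammation list, as miR-133a-3p is on both the fibrosis and the striated muscle list. The 5 tested leukocyte miRNAs had a median change of 0.89 under quantile normalization and 0.65 under spike-in scaling, beside -0.02 and -0.78 over all tested miRNAs. Both leukocyte medians are the values of miR-155-5p, which depend on the floor. The lowest leukocyte and miR-21-5p shares in the TULP group were both those of TULP replicate 1. The part of leukocytes in the miR-21-5p result was not tested.

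The striated muscle list of 5 held 18.6% to 26.6% of the signal on the sham arrays and 11.1% to 20.9% on the TULP arrays. In this list 3 of the 4 tested miRNAs fell at the adjusted p, miR-1-3p, miR-133a-3p and miR-133b-3p, by 0.74, 0.96 and 0.72 on the log2 scale, beside 16.6% of all tested miRNAs. miR-206-3p, the other tested member, differed by 0.25 (limma adjusted p = 0.795), with a mean share of 4.30% in the sham group and 5.13% in the TULP group, and miR-499-5p was detected on no array. Since shares add to a fixed total, the share of miR-21-5p was also taken with these 5 left out. It was then 3.49% to 5.48% on the sham arrays and 12.6% to 18.0% on the TULP arrays, a difference of 11.3 percentage points, given as a description. miR-1b, which is not on this list, stayed in the total. It had a mean share of 5.65% in the sham group and 3.49% in the TULP group, and a log2 quantile change of -0.77.

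Each of the other marker lists had signal in both groups, but some members were detected on fewer TULP than sham arrays. Of 11 epithelial miRNAs 8 were tested and miR-182 was detected on no array. Of the 8, 0 passed the limma adjusted p or the adjusted p of the methods' t-test, 3 had an unadjusted limma p under 0.05, and their median change was -0.70, while 30.5% of all tested miRNAs passed the limma adjusted p. With spike-in scaling 6 of the 8 fell at the limma adjusted p, beside 54.3% of all tested miRNAs. They held 1.93% to 2.89% of the signal on sham arrays and 1.64% to 4.07% on TULP arrays, with TULP replicate 1 the highest. miR-375-3p was detected on 4 sham arrays and 1 TULP array and differed by -2.03 (limma adjusted p = 0.0675). miR-183-5p was detected on 4 sham and 2 TULP arrays and differed by -0.74 (limma adjusted p = 0.446). Both changes depend on the floor. miR-200c-3p differed by -1.46 (limma adjusted p = 0.0753), while miR-200b-3p and miR-429 differed by 0.0006 and 0.01. The smooth muscle pair miR-143-3p and miR-145-5p held 2.41% to 4.47% on sham arrays and 2.34% to 4.89% on TULP arrays, again with TULP replicate 1 the highest. The endothelial pair, of which miR-126a-5p was not detected, held 0.485% to 0.617% and 0.490% to 0.626%. The erythroid list of 3, with miR-144-3p not detected, held 0.276% to 0.393% on sham arrays and 0.166% to 0.363% on TULP arrays. In it miR-486 differed by -0.79 (limma adjusted p = 0.0498, and 0.0852 by the methods' t-test). With spike-in scaling miR-486 differed by -1.53 (limma adjusted p = 0.00165). miR-451-5p differed by -0.66 (limma adjusted p = 0.597).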

How the data were processed

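The deposited scanner files hold background-subtracted intensity per spot, made by the authors with Agilent Feature Extraction 10.7.1.1 from arrays hybridized with 1 dye (0.2 µg of RNA, per the labels). The deposited table holds log2 values of 780 features after quantile normalization by the authors. It was used as an alternative. The signal of a miRNA was rebuilt as the sum of probe totals above 3 times their error, or 0.1 where none was. It was quantile normalized over 758 rat miRNAs, raised to a floor of 1.94 and converted to log2. The 151 miRNAs detected on at least 4 of 8 arrays were fitted in limma 3.58.1 (R 4.3.3, group as the single term, Benjamini-Hochberg adjustment), and the script was tested on simulated data. A call needed an adjusted p under 0.05 and over 2-fold change. The number of arrays limits the precision.

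miRNAs named were the 2 strands, those among the 5 brightest on any array, the 5 nearest in pattern, and called members of the lists. miR-188-5p, the strand pairs, miR-29c-5p, miR-150-5p, miR-155-5p, miR-182, undetected markers and others outside this rule were added after their values were seen. The members, lists and tests were chosen with earlier results of these data known. No rat genome of build rn4 was used here.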

Additional observations from a re-analysis of the deposited data

Results flagged for a closer look

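Of 53 sets of 4 arrays examined, 3 held an array whose gap to its nearest neighbour took up most of the group's range, beside 2.65 expected by chance at 1 in 20. The mean background-subtracted spot signal of the undetected miR-21-3p was -0.409 on sham replicate 2, against -1.48 to -1.31 on the other sham arrays. It was -2.45 on TULP replicate 1, against 0.592 to 0.779 on the other TULP arrays. All of these values lie below detection. The log2 quantile-normalized signal of miR-20a-5p, a miRNA close to miR-21-5p in pattern, was 4.90 on TULP replicate 1, against 5.61 to 5.68 on the other TULP arrays.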

How the results depend on the processing

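No value of the miR-21-3p change or of the strand ratio change could be given under any setting that treats undetected miRNAs as such. The miR-21-5p change kept its direction in all alternatives run. As miR-21-5p was chosen with this change known on these same arrays, that is a description and no independent support. Against 1.76 it was 1.05 with labelling spike-ins, 1.28 with no normalization, 2.13 with cyclic loess, 1.52 with control features kept and 1.52 in the deposited table, and 1.66 to 1.98 when single arrays were left out, the highest without sham replicate 2. Chosen after seeing the data were the slide rows (2.06, 1.42 and 1.32 in the first for quantile, spike-in and no scaling, 0.97 and 1.21 in the second for the last pair) and the spike-in and unnormalized values without TULP replicate 1 (1.12 and 1.32). The share difference of 9.73 points was 7.62 on stored totals, 5.68 with normexp and 9.20 to 10.4 leaving out single arrays.

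The 14 calls became 53 with spike-ins, 5 higher and 48 lower, 34 with no normalization, 1 with normexp and 8 among miRNAs detected on all 8 arrays. The methods' t-test gave 18 at the threshold of the methods and 12 after Benjamini-Hochberg adjustment. They were 9 to 21 with single arrays left out, lowest without TULP replicate 3. Normexp left 34 miRNAs past the limma adjusted p and 60 past an unadjusted p under 0.05. In the inducible list 3 calls became 1 with all probes, detection on all 8 arrays, the methods' t-test or either block, 0 with normexp, and 1 to 3 with single arrays left out. In the fibrosis list 1 call became 4 with spike-ins, 3 with no normalization, 2 with the 75th percentile or the slide row block, 0 with stored totals, normexp or detection on all 8 arrays, and 0 to 3 with single arrays left out. In the marker lists 2 calls became 13 with spike-ins, 10 with no normalization, 5 with the 75th percentile, 4 with control features or stored totals, 1 with the floor of 0.1 or detection on all 8 arrays, 0 with normexp, and 1 to 7 with single arrays left out. The cause was not tested.

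Per the study's methods the rats were assigned to the groups at random, so the replicate numbers were not taken as pairs. Arrays of the same number correlated at 0.13, -0.10, 0.27 and -0.10 in their deviations from the group means. Of the 4 sham arrays, 2 correlated best with the TULP array of their own number. So few correlations cannot exclude a pairing. With the replicate block 11 miRNAs were called and the miR-21-5p difference was 1.76.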
